A study of Homo sapiens with 12 samples.

Results

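The 10 genes described here belong to the BCL2 family, which controls the mitochondrial route to apoptosis, and they were chosen by name out of 57820 gene identifiers. They comprise 4 survival genes (BCL2, BCL2L1, BCL2L2 and MCL1), 2 effectors (BAX and BAK1) and 4 BH3-only genes (BCL2L11, BBC3, BID and PMAIP1). Of the 10, 9 passed the filter on low counts and were tested. PMAIP1 did not pass it.

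The mRNA was sequenced in G401, an established human cell line from a rhabdoid tumour of the kidney, whose genotype is labelled SMARCB1(-/-) in every group. SMARCB1 is a core subunit of the canonical SWI/SNF (BAF) chromatin remodelling complex. Under dox induction, cells expressed GFP (the control) or SMARCB1, and were given DMSO or dBRD9-A for 24 hours. dBRD9-A is a degrader of BRD9, a bromodomain subunit of the non-canonical BAF complex, which lacks SMARCB1. This gave 4 groups of 3 libraries: GFP with DMSO, GFP with dBRD9-A, SMARCB1 with DMSO and SMARCB1 with dBRD9-A. Every group thus carried the SMARCB1 deletion and a dox-induced protein. The dose of dBRD9-A, the length of induction and whether the inducible cells were clones or pools are not given in the sources used here.

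BCL2 family proteins share short BCL2 homology (BH) domains and act on one another at the mitochondrial outer membrane. Survival proteins hold the effectors and the BH3-only proteins in check through a groove that takes up a BH3 helix. When BH3-only proteins occupy that groove or engage the effectors directly, BAX and BAK1 form pores, cytochrome c leaves the mitochondria and caspases are activated. Many of these proteins are regulated after transcription, MCL1 through rapid protein turnover among them, and the values below are mRNA levels only.

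The BH3 helix is the feature through which these proteins meet, so its coding sequence is shown for all 10 members. Each line gives 15 codons from the main GENCODE 29 transcript (GRCh38), 5′ to 3′. Capitals mark the codon of a conserved hydrophobic residue (leucine or methionine), which need not be the first of the helix. After a gap of 3 codons, they mark the neighbouring codons for a small residue (glycine or alanine) and aspartate. The search also required alanine, valine, isoleucine, leucine, methionine or phenylalanine at the last codon of that gap. With this condition, each of the 10 coding sequences held the pattern at exactly 1 place.
BCL2: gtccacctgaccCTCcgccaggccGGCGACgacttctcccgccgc
BCL2L1: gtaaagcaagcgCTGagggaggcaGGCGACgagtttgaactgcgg
BCL2L2: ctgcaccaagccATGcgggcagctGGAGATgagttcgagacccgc
MCL1: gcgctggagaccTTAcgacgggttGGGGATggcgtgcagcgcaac
BAX: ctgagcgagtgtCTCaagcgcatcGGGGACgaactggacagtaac
BAK1: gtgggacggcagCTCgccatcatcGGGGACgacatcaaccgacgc
BCL2L11: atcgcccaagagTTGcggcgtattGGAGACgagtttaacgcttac
BBC3: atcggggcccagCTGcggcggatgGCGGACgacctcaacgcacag
BID: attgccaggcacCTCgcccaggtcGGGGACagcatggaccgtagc
PMAIP1: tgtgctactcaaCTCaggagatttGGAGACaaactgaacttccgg
In these stretches BCL2L2 had a methionine codon at the first marked place and BBC3 an alanine codon at the second.

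Libraries held 34.97 to 58.54 megacounts (1e6 counts) assigned to genes. SMARCB1 itself had 0 to 1 counts in the GFP libraries with DMSO and 1 to 2 in those with dBRD9-A, against 53033 to 110893 counts in the 6 SMARCB1 libraries, which matches the labels. The leukocyte gene PTPRC had 0 counts in all 12 libraries. Of the epithelial genes, EPCAM had 14 to 44 counts in GFP libraries and 0 to 3 in SMARCB1 libraries, whereas CDH1 had 0 to 4 and 14 to 37; their part in the results was not tested. In bulk RNA, fewer cells expressing a gene and less RNA per cell cannot be told apart. Levels below are counts per megacount (CPM) on TMM-scaled library sizes, and ± gives the SD over 3 libraries. On this scale SMARCB1 mRNA in SMARCB1 cells was 1875 ± 59.4 CPM with DMSO and 1307 ± 27.0 CPM with dBRD9-A, without overlap. Comparisons that use SMARCB1 cells with dBRD9-A thus also involve a lower SMARCB1 level, whose part was not tested.

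Re-expression of SMARCB1 moved the survival genes in opposite directions, with BCL2 and BCL2L2 lower and BCL2L1 and MCL1 higher. In DMSO, 9 of the 9 tested members passed the threshold of an adjusted p under 0.05, 5 of them higher and 4 lower. Among all 15750 genes tested, 65% passed it, 33.5% higher and 31.6% lower, so passing it is common here and the sizes and directions carry the description. With dBRD9-A in both arms, 8 of the 9 members passed, 4 higher and 4 lower, against 63.3% of all genes (33% higher and 30.4% lower). The 2 comparisons of SMARCB1 with GFP use different libraries.

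dBRD9-A changed fewer members. In GFP cells it lowered BCL2, BCL2L1 and BCL2L11 and raised MCL1 and BAX, which makes 5 of 9 members called against 15.9% of all genes (7.43% higher and 8.47% lower). In SMARCB1 cells 1 of 9 members, BCL2, was called lower, against 1.93% of all genes (0.679% higher and 1.25% lower). The difference between the 2 responses, tested as an interaction, passed for 2 of 9 members, BCL2L1 and BCL2, against 3.8% of all genes (2.15% higher and 1.65% lower). The comparison of dBRD9-A with DMSO in GFP cells shares its control arm with the comparison of SMARCB1 with GFP in DMSO. In SMARCB1 cells, the control arm for dBRD9-A is the SMARCB1 arm of that same comparison.

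These directions for dBRD9-A are relative to the bulk of the transcriptome and depend on how libraries are scaled. ERCC spike-ins, synthetic RNAs whose addition the labels do not describe, took 1.2649% to 1.302% of counts in GFP cells with DMSO and 0.9634% to 1.0604% with dBRD9-A. In SMARCB1 cells they took 1.0848% to 1.2103% with DMSO and 1.1775% to 1.2954% with dBRD9-A. For dBRD9-A, scaling to the spike-ins shifted the all-gene median (log2) from near 0 to 0.357 in GFP cells and to -0.135 in SMARCB1 cells. The median of the interaction moved to -0.491. For SMARCB1 against GFP the median moved to 0.165 in DMSO and to -0.319 with dBRD9-A. With that scaling, 6 of the 9 members were called higher and 0 lower with dBRD9-A in GFP cells, where 71.8% of all genes were called (11083 higher and 227 lower of 15750). In SMARCB1 cells 0 were called higher and 2 lower, against 5.54% of all genes (39 higher and 834 lower). The interaction then called 0 higher and 7 lower, against 71.6% of all genes (66 higher and 11204 lower). The members' shares in GFP cells and in the interaction are thus near those of all genes. For SMARCB1 against GFP it called 5 members higher and 3 lower in DMSO, against 59.8% of all genes (6831 higher and 2581 lower). With dBRD9-A in both arms it called 2 higher and 6 lower, against 71.0% of all genes (2129 higher and 9046 lower). Whether total RNA per cell changed was not tested.

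**Figure D1:**
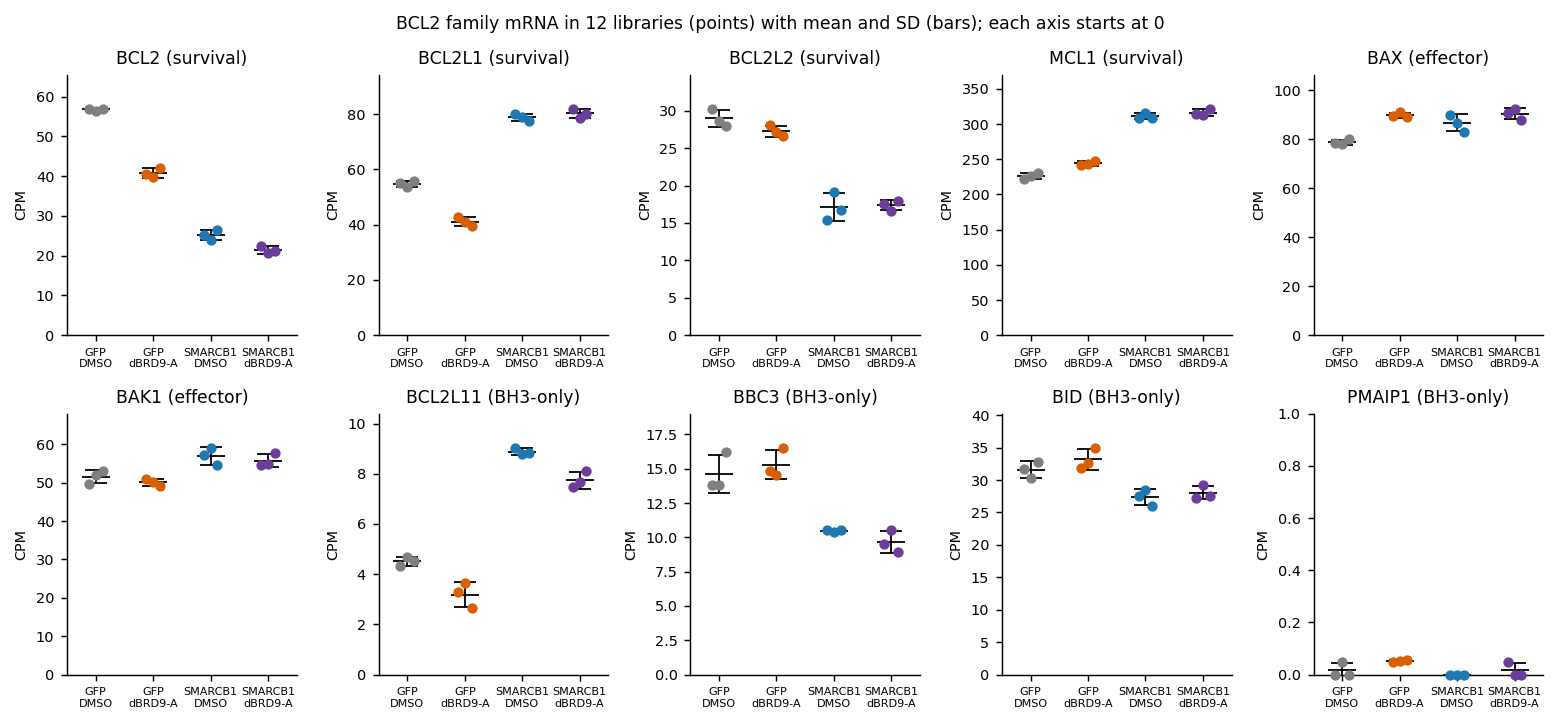
Level of each of the 10 members in CPM (vertical axis, linear from 0) in the 4 groups; points are the 12 libraries and black bars the mean and SD of 3 libraries. The steps of BCL2 from 56.8 to 21.4 CPM and the separate SMARCB1 and GFP levels of BCL2L1, BCL2L2, MCL1, BCL2L11 and BBC3 stand out, while PMAIP1 lies at the bottom of its axis.

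**Figure D2:**
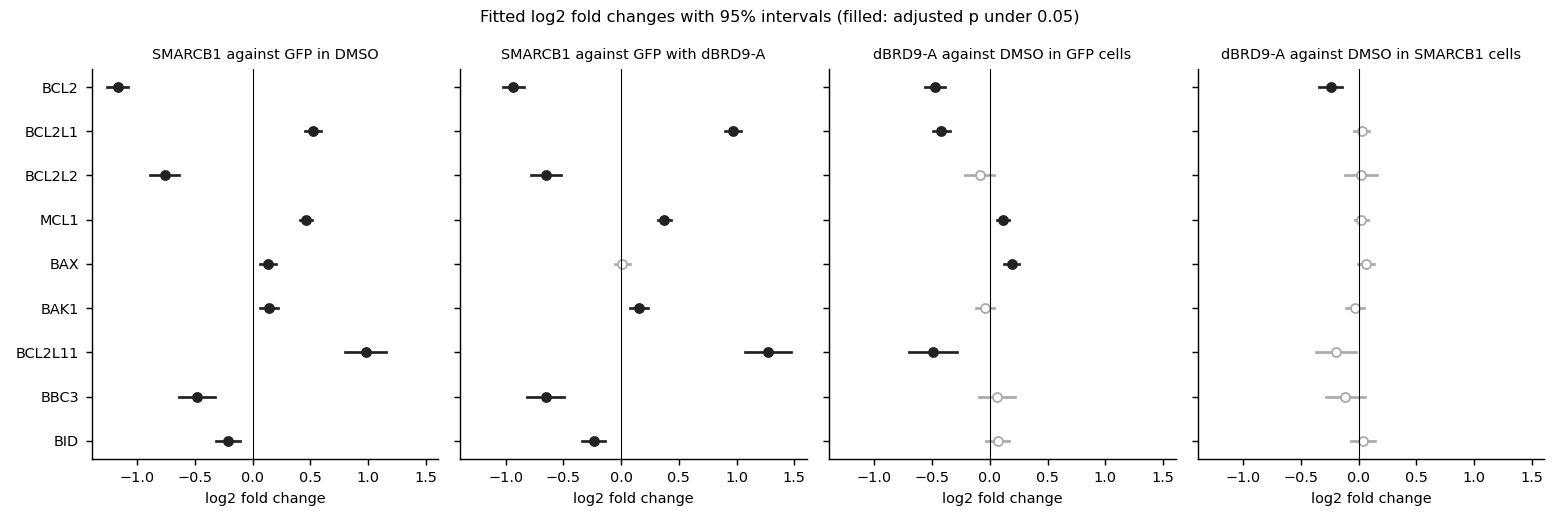
Fitted log2 fold change (horizontal axis) of the 9 tested members in the 4 comparisons between 2 groups, with 95% intervals; filled symbols have an adjusted p under 0.05. The SMARCB1 panels span from -1.17 for BCL2 to 1.27 for BCL2L11, the panel for dBRD9-A in GFP cells from -0.49 to 0.19, and the panel for dBRD9-A in SMARCB1 cells has BCL2 as its 1 filled symbol.

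Among the survival genes, BCL2 (ENSG00000171791.10), the founding member of the family, had the largest change with SMARCB1 in DMSO, while with dBRD9-A in both arms BCL2L1 changed slightly more. Its levels in the 3 GFP libraries with DMSO were 56.9, 56.5 and 57.0 CPM, and with dBRD9-A they were 40.5, 39.7 and 42.2 CPM. In SMARCB1 cells they were 25.2, 24.0 and 26.4 CPM with DMSO and 22.5, 20.6 and 21.2 CPM with dBRD9-A. The 4 groups thus formed 4 separate steps with no overlap between any pair. SMARCB1 lowered BCL2 to 0.445 of the GFP level in DMSO (log2 fold change -1.17, SE 0.04, adjusted p = 7.26e-14) and to 0.524 of it with dBRD9-A (-0.93, SE 0.04, adjusted p = 3.94e-12). Both falls were also called with spike-in scaling.

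dBRD9-A lowered BCL2 in GFP cells to 0.718 of the DMSO level (log2 fold change -0.48, SE 0.04, adjusted p = 2.38e-07), a call lost with spike-in scaling (-0.12, adjusted p = 0.173), where BCL2 lay below the median shift of 0.357. In SMARCB1 cells the fall was to 0.845 of the DMSO level (-0.24, SE 0.05, adjusted p = 0.00782). That second call was lost when SMARCB1 replicate 3 with DMSO, the highest of its group, was left out (-0.20, adjusted p = 0.0598) and in a fit on the SMARCB1 libraries alone (adjusted p = 0.0657). In SMARCB1 cells the response was the smaller by 0.23 (SE 0.06, adjusted p = 0.0400). This difference was called in 3 of 12 fits that each left out 1 library (GFP replicate 3 with dBRD9-A, SMARCB1 replicate 3 with DMSO or SMARCB1 replicate 2 with dBRD9-A), with adjusted p up to 0.115 in the others. It turned to -0.26 (adjusted p = 0.0347) with spike-in scaling.

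BCL2L1 (ENSG00000171552.8) encodes BCL-xL in its long isoform and a pro-apoptotic product in its short one, which gene-level counts do not separate. GFP cells had 55.2, 53.55 and 55.7 CPM with DMSO and 42.7, 40.8 and 39.5 CPM with dBRD9-A. SMARCB1 cells had 80.05, 78.9 and 77.4 CPM with DMSO and 82.0, 78.7 and 80.0 CPM with dBRD9-A. The GFP groups were apart from each other and from both SMARCB1 groups, and the SMARCB1 groups overlapped. SMARCB1 raised BCL2L1 by 1.44-fold in DMSO (log2 fold change 0.52, SE 0.03, adjusted p = 1.67e-10) and by 1.95-fold with dBRD9-A (0.97, SE 0.03, adjusted p = 5.21e-14), also with spike-in scaling.

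dBRD9-A lowered BCL2L1 in GFP cells to 0.748 of the DMSO level (-0.42, SE 0.03, adjusted p = 1.36e-07). In SMARCB1 cells no change was called (0.03, 95% interval -0.04 to 0.09, adjusted p = 0.811). The interaction was 0.45 (SE 0.05, adjusted p = 1.73e-05) and was called in 12 of 12 fits without 1 library. With spike-in scaling the fall in GFP cells was -0.06 (adjusted p = 0.428) and the interaction turned to -0.05 (adjusted p = 0.658). BCL2L1 then still lay below the shift of all genes in GFP cells and above the -0.491 of all genes in the interaction.

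MCL1 (ENSG00000143384.8), a short-lived survival protein, had 222, 226 and 230.4 CPM in GFP cells with DMSO and 242, 243 and 248 CPM with dBRD9-A. In SMARCB1 cells it had 308, 316 and 309 CPM with DMSO and 314, 313 and 322 CPM with dBRD9-A. Every SMARCB1 library was above every GFP library, and the 2 GFP groups were apart by a narrower gap. SMARCB1 raised MCL1 by 1.38-fold in DMSO (log2 fold change 0.46, SE 0.03, adjusted p = 3.21e-11). With dBRD9-A the rise was 1.3-fold (0.37, SE 0.03, adjusted p = 6.97e-10), a call lost with spike-in scaling (0.05, adjusted p = 0.539). dBRD9-A raised MCL1 in GFP cells by 1.08-fold (0.11, SE 0.03, adjusted p = 0.00597). In SMARCB1 cells the value was 0.02 (95% interval -0.03 to 0.08, adjusted p = 0.780).

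BCL2L2 (ENSG00000129473.5), which encodes the survival protein BCL-w, had 30.3, 28.6 and 28.0 CPM in GFP cells with DMSO and 28.1, 27.2 and 26.6 CPM with dBRD9-A. SMARCB1 cells had 15.4, 19.1 and 16.8 CPM with DMSO and 17.6, 16.6 and 18.0 CPM with dBRD9-A. Groups with the same induced protein overlapped, and GFP and SMARCB1 libraries did not. SMARCB1 lowered BCL2L2 to 0.590 of the GFP level in DMSO (log2 fold change -0.76, SE 0.06, adjusted p = 5.13e-09) and to 0.636 of it with dBRD9-A (-0.65, SE 0.06, adjusted p = 6.04e-08), and both falls were called with spike-in scaling. dBRD9-A gave no call in GFP cells (-0.09, 95% interval -0.21 to 0.04, adjusted p = 0.377) or in SMARCB1 cells (0.02, 95% interval -0.11 to 0.16, adjusted p = 0.935). Spike-in scaling turned the value in GFP cells to 0.27 (adjusted p = 0.0017), below the all-gene median of 0.357.

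BCL2L2 shares exons with the read-through gene BCL2L2-PABPN1, whose own row held 84.98 to 311.38 counts per library. With the 2 rows summed, an alternative chosen after seeing the data, the SMARCB1 fall in DMSO was -0.63 (adjusted p = 4.39e-07) and that with dBRD9-A was -0.55 (adjusted p = 3.22e-06). Exons also overlap an opposite-strand gene at BCL2L2 (PPP1R3E), BCL2L1 (ABALON), BAK1 (GGNBP1), BBC3 (MIR3190) and BCL2L11 (MIR4435-2HG), and a same-strand one at MCL1 (ADAMTSL4-AS1) and BBC3 (MIR3191), so their reads may be shared. BCL2, BAX, BID and PMAIP1 had no such overlap in GENCODE 29.

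Levels of different genes can be set side by side only per length. Divided by the length of the main GENCODE 29 transcript, the survival genes in GFP cells with DMSO stood at 57.5 ± 1.09 CPM per kilobase for MCL1 and 21.0 ± 0.437 for BCL2L1. On the same scale BCL2 stood at 17.7 ± 0.0871 and BCL2L2 at 8.04 ± 0.327. In SMARCB1 cells with DMSO the values were 79.2 ± 1.13 for MCL1, 30.2 ± 0.51 for BCL2L1, 7.86 ± 0.385 for BCL2 and 4.74 ± 0.527 for BCL2L2. MCL1 and then BCL2L1 led in both groups, and did so as well when all exonic bases were used (51.7 and 16.5 CPM per kilobase in GFP cells with DMSO). The order of BCL2 and BCL2L2 in GFP cells with DMSO turned with the length used, since BCL2 fell to 4.83 and BCL2L2 to 6.92 CPM per kilobase of all exons.

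The 2 effector genes moved little. BAX (ENSG00000087088.15) had 78.3, 78.04 and 79.95 CPM in GFP cells with DMSO and 89.5, 91.0 and 88.9 CPM with dBRD9-A. In SMARCB1 cells it had 90.0, 86.8 and 83.1 CPM with DMSO and 90.7, 92.5 and 87.9 CPM with dBRD9-A. The GFP libraries with DMSO were the lowest 3 of the 12, and the other 3 groups overlapped. BAX rose 1.10-fold with SMARCB1 in DMSO (log2 fold change 0.14, SE 0.03, adjusted p = 0.00118) and 1.14-fold with dBRD9-A in GFP cells (0.19, SE 0.03, adjusted p = 0.000491). Between SMARCB1 and GFP cells that both had dBRD9-A the value was 0.01 (95% interval -0.06 to 0.08, adjusted p = 0.810). Spike-in scaling turned it to -0.32 (adjusted p = 4.34e-05), close to the shift of all genes of -0.319. The interaction for BAX, -0.13 (95% interval -0.22 to -0.03 before adjustment), was not called (adjusted p = 0.16). With spike-in scaling it was -0.62 and was called (adjusted p = 1.91e-06), where all genes had a median of -0.491.

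BAK1 (ENSG00000030110.8) had 49.7, 52.1 and 53.03 CPM in GFP cells with DMSO and 50.8, 50.2 and 49.1 CPM with dBRD9-A. In SMARCB1 cells it had 57.1, 59.1 and 54.6 CPM with DMSO and 54.7, 54.7 and 57.7 CPM with dBRD9-A. The 2 SMARCB1 groups lay above the 2 GFP groups and overlapped each other. SMARCB1 raised BAK1 1.10-fold in DMSO (log2 fold change 0.14, SE 0.04, adjusted p = 0.00328) and 1.11-fold with dBRD9-A (0.15, SE 0.04, adjusted p = 0.00192), the latter turning to -0.17 (adjusted p = 0.0183) with spike-in scaling. dBRD9-A gave no call in GFP cells (-0.04, 95% interval -0.12 to 0.04, adjusted p = 0.513) or SMARCB1 cells (-0.03, 95% interval -0.11 to 0.05, adjusted p = 0.831). Spike-in scaling turned the value in GFP cells to 0.32 (adjusted p = 6.72e-05), below the all-gene median of 0.357.

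The BH3-only genes moved in different directions. BCL2L11 (ENSG00000153094.17) encodes BIM, which binds every survival protein of the family. It had 4.33, 4.68 and 4.51 CPM in GFP cells with DMSO and 3.27, 3.63 and 2.65 CPM with dBRD9-A. In SMARCB1 cells it had 9.03, 8.80 and 8.81 CPM with DMSO and 7.46, 7.65 and 8.10 CPM with dBRD9-A. Its 4 groups were separate, as those of BCL2 were, but with the SMARCB1 groups on top. SMARCB1 raised BCL2L11 1.97-fold in DMSO (log2 fold change 0.98, SE 0.09, adjusted p = 1.54e-08) and 2.42-fold with dBRD9-A (1.27, SE 0.09, adjusted p = 1.95e-09), and both rises were called with spike-in scaling.

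dBRD9-A lowered BCL2L11 in GFP cells to 0.711 of the DMSO level (-0.49, SE 0.10, adjusted p = 0.00222), a call lost with spike-in scaling (-0.14, adjusted p = 0.289). In SMARCB1 cells the libraries did not overlap either, but the value of -0.20 (SE 0.08) missed the threshold (adjusted p = 0.298). With spike-in scaling it was -0.34 and was called (adjusted p = 0.0403). The interaction of 0.29 (95% interval 0.02 to 0.57 before adjustment) was not called (adjusted p = 0.269).

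The promoter of BCL2L11 is shown because this member had the largest rise with SMARCB1. The 250 bases before its start in RefSeq (GRCh38.p14, chr2:111120664-111120913, plus strand) overlap no annotated exon of BCL2L11 itself. Overlap of this window with exons of other genes was not tested. Capitals mark the motifs found on either strand.
BCL2L11 promoter: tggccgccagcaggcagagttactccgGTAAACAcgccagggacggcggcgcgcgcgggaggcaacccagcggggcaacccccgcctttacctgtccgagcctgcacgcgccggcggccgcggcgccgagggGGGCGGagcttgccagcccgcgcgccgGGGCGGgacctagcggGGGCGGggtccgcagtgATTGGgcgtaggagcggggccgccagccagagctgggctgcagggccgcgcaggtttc
It held 1 match to the FOXO motif GTAAACA, which 3.0% of 35116 RefSeq promoter windows of this length hold. It also held 3 matches to the SP1 motif GGGCGG (in 42.6% of windows) and 1 to CCAAT, read on the other strand (32.0%). The letters of AP-1 (TGANTCA), CRE (TGACGTCA), TEAD (GGAATG), an E-box (CACGTG) and E2F (TTTCCCGC) were not in this window. A match describes letters only, and binding was not measured.

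BBC3 (ENSG00000105327.11) encodes PUMA, a BH3-only protein known as a p53 target. Its levels were 13.8, 13.8 and 16.2 CPM in GFP cells with DMSO and 14.8, 14.6 and 16.5 CPM with dBRD9-A. SMARCB1 cells had 10.55, 10.4 and 10.5 CPM with DMSO and 9.54, 10.5 and 8.91 CPM with dBRD9-A. All SMARCB1 libraries were below all GFP libraries. SMARCB1 lowered BBC3 to 0.717 of the GFP level in DMSO (log2 fold change -0.48, SE 0.08, adjusted p = 2.24e-05) and to 0.635 of it with dBRD9-A (-0.66, SE 0.08, adjusted p = 8.80e-07), also with spike-in scaling. For dBRD9-A the values were 0.06 in GFP cells (95% interval -0.09 to 0.22, adjusted p = 0.645) and -0.11 in SMARCB1 cells (95% interval -0.28 to 0.05, adjusted p = 0.611). With spike-in scaling the value in GFP cells was 0.43 and was called (adjusted p = 9.14e-05), where all genes had a median of 0.357.

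BID (ENSG00000015475.14), which links death receptors to mitochondria once caspase-8 has cleaved it, had 31.6, 30.25 and 32.8 CPM in GFP cells with DMSO and 31.9, 32.6 and 34.96 CPM with dBRD9-A. SMARCB1 cells had 27.6, 28.5 and 26.0 CPM with DMSO and 27.3, 29.2 and 27.6 CPM with dBRD9-A. The SMARCB1 groups lay below the GFP groups by a small margin. SMARCB1 lowered BID to 0.864 of the GFP level in DMSO (log2 fold change -0.21, SE 0.05, adjusted p = 0.000952), a call lost with spike-in scaling (-0.04, adjusted p = 0.667), and to 0.847 of it with dBRD9-A (-0.24, SE 0.05, adjusted p = 0.000350). dBRD9-A gave 0.07 in GFP cells (95% interval -0.03 to 0.17, adjusted p = 0.394) and 0.04 in SMARCB1 cells (95% interval -0.07 to 0.14, adjusted p = 0.825). With spike-in scaling the value in GFP cells was 0.43 and was called (adjusted p = 4.1e-06), against the all-gene median of 0.357.

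PMAIP1 (ENSG00000141682.11) encodes NOXA, a BH3-only protein that binds MCL1 and targets it for degradation. It had 0, 2 and 0 counts in GFP cells with DMSO, 2 in each of the 3 GFP libraries with dBRD9-A, 0 in each SMARCB1 library with DMSO, and 2, 0 and 0 with dBRD9-A. Every library was below a floor of 3 counts, the limit that a count of 0 allows, which corresponded to 0.05125 to 0.08578 CPM. That floor reflects counting error alone, because reads that lack molecular identifiers may be copies of 1 molecule. No fold change or order of groups was computed for PMAIP1.

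**Figure D3:**
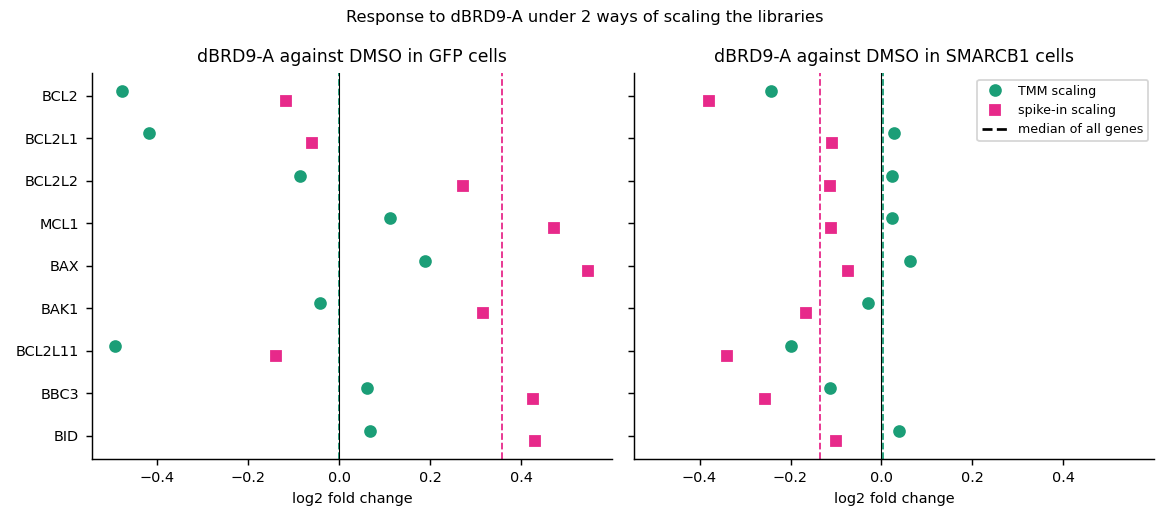
Log2 fold change (horizontal axis) of the 9 tested members for dBRD9-A in GFP cells (left) and SMARCB1 cells (right), with TMM scaling (circles) and spike-in scaling (squares); dashed lines mark the median of all genes under each. In GFP cells BCL2, BCL2L1, BCL2L2, BAK1 and BCL2L11 lie left of the dashed line under both scalings, and the spike-in line lies at 0.357.

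Ratios of 2 members within a library do not depend on scaling, and 3 such ratios, chosen after the levels had been seen, are given as a description. BCL2L1 counts per BCL2 count were 0.971, 0.948 and 0.977 in GFP cells with DMSO and 1.05, 1.03 and 0.937 with dBRD9-A. In SMARCB1 cells they were 3.17, 3.29 and 2.93 with DMSO and 3.65, 3.83 and 3.78 with dBRD9-A. The GFP groups overlapped, with both genes lower under dBRD9-A (to 0.748 and 0.718 of the DMSO level), while the SMARCB1 groups were apart from them and from each other.

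BCL2L11 counts per BCL2 count averaged 0.0794 ± 0.00333 in GFP cells with DMSO and 0.0784 ± 0.0144 with dBRD9-A. In SMARCB1 cells they averaged 0.353 ± 0.0175 and 0.362 ± 0.0271. Libraries overlapped within each cell state and were separate between them. BAX counts per BCL2 count stepped up over the groups without overlap, from 1.39 ± 0.0133 and 2.20 ± 0.0906 in GFP cells to 3.44 ± 0.262 and 4.23 ± 0.242 in SMARCB1 cells, in each case with DMSO first.

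**Figure D4:**
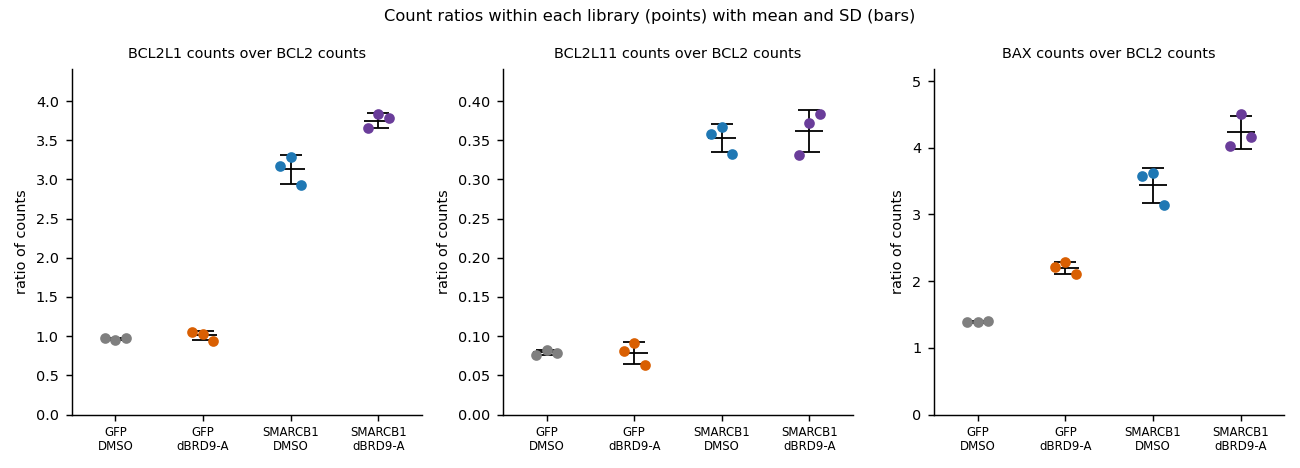
Ratio of counts of 2 members within each library (vertical axis, linear from 0) in the 4 groups, for BCL2L1, BCL2L11 and BAX over BCL2; points are libraries and bars the mean and SD of 3. The BCL2L1 and BCL2L11 ratios step up with SMARCB1, to 3.13 and 0.353 in DMSO, and the BAX ratio also separates dBRD9-A from DMSO in GFP cells, at 2.20 and 1.39.

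Counts over the 8 other lists stand against the same shares of all genes, which for SMARCB1 in DMSO are 65% called with TMM and 59.8% with spike-in scaling, most of the latter higher. For dBRD9-A in GFP cells they are 15.9% and 71.8%, nearly all of the latter higher. Of 13 other BCL2 family genes, 9 passed the filter. With SMARCB1 in DMSO 6 of them rose and 1 fell, with a median log2 fold change of 0.215 (all genes -0.00472), and with spike-in scaling 8 rose and 1 fell. BNIP3L, a mitophagy receptor with a BH3-like stretch, rose most, from 45.7 ± 1.44 to 114 ± 3.7 CPM (1.32, SE 0.04, adjusted p = 5.36e-15). BOK, an effector-like protein, rose by 0.91 (adjusted p = 1.6e-10), and BMF, a BH3-only protein, by 0.59 (adjusted p = 0.000505) from a low 3.19 ± 0.265 CPM. BNIP3 rose by 0.48, BCL2L12 by 0.21 and BCL2L13 by 0.17. HRK, a BH3-only gene known from neurons, fell by 0.67 (adjusted p = 4.5e-08). BAD (0.07, adjusted p = 0.347) and BIK (0.19, adjusted p = 0.25) were not called. BCL2A1, BCL2L10, BCL2L14 and BCL2L15 had 0 to 7 counts in any library and were not tested.

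With dBRD9-A in GFP cells, 3 of these 9 genes rose and 1 fell (median 0.179, all genes -0.00046), against 8 and 0 with spike-in scaling. BNIP3L (0.23, adjusted p = 0.000769), BOK (0.29, adjusted p = 0.00259) and BCL2L12 (0.19, adjusted p = 0.0305) rose, and BCL2L13 fell by 0.18 (adjusted p = 0.00207), which spike-in scaling turned to a rise of 0.18. The BCL2L12 call was lost without GFP replicate 1 (adjusted p = 0.0969) or 2 (0.0933) with DMSO, and without GFP replicate 1 (0.0621) or 2 (0.122) with dBRD9-A. In SMARCB1 cells 0 of the 9 were called with dBRD9-A by edgeR and 0 by DESeq2, where 1.93% and 2.16% of all genes were called. A count of 0 is thus near the share of all genes. An unadjusted p under 0.05 in edgeR was reached by 1 of the 9.

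Downstream of the mitochondria, 6 of 13 apoptosome and caspase genes rose and 3 fell with SMARCB1 in DMSO (median 0.069), which spike-in scaling turned to 9 and 0; 9 of 13 called is close to the share of all genes under either scaling. With dBRD9-A in GFP cells 1 rose and 1 fell (13 and 0 with spike-in scaling). Of the 7 inhibitor of apoptosis (IAP) genes, 2 rose and 2 fell with SMARCB1 in DMSO under both scalings (median -0.0766). BIRC7, which encodes livin, fell from 19.4 ± 0.715 to 7.94 ± 0.512 CPM (-1.298, SE 0.07, adjusted p = 1.52e-11). XIAP, an inhibitor of caspases, fell with SMARCB1 (-0.55, adjusted p = 1.7e-11) and rose with dBRD9-A in GFP cells, from 118 ± 4.3 to 155 ± 0.847 CPM (0.39, SE 0.03, adjusted p = 2.87e-08), and spike-in scaling kept both directions.

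In the death receptor pathway, 11 of 14 genes were tested, and 6 rose and 2 fell with SMARCB1 in DMSO (7 and 1 with spike-in scaling; median 0.122). CASP8, the initiator that cleaves BID, fell from 76.1 ± 1.47 to 59.0 ± 1.49 CPM (-0.37, SE 0.03, adjusted p = 4.22e-09). RIPK1, a kinase of the receptor complex, rose with dBRD9-A in GFP cells (0.41, SE 0.04, adjusted p = 4.87e-06), where 2 genes of the list rose and 2 fell (8 and 0 with spike-in scaling). Of the 3 outer membrane channel genes, VDAC1 was called, at -0.25 with SMARCB1 in DMSO (adjusted p = 3.21e-08), a call lost with spike-in scaling (-0.08, adjusted p = 0.27). Among 5 genes for the turnover of MCL1 protein, 4 rose and 0 fell with SMARCB1 in DMSO (median 0.307; 5 and 0 with spike-in scaling). FBXW7, the substrate receptor of a ubiquitin ligase for MCL1, rose by 0.41 (adjusted p = 5.15e-08). BTRC, another such receptor, rose by 0.19 with dBRD9-A in GFP cells (adjusted p = 0.00492).

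Of 9 transcription regulators of BH3-only genes, 8 were tested, and 3 rose and 5 fell with SMARCB1 in DMSO (3 and 3 with spike-in scaling; median -0.129). MYC fell from 189 ± 1.56 to 64.3 ± 1.54 CPM (-1.56, SE 0.04, adjusted p = 1.21e-16). Among 20 p53 targets outside the family, 19 were tested, and 16 fell and 2 rose with SMARCB1 in DMSO (14 and 2 with spike-in scaling; median -0.446). PHLDA3, a p53-induced inhibitor of AKT, fell from 146 ± 4.12 to 49.8 ± 0.484 CPM (-1.56, SE 0.05, adjusted p = 1.13e-14). BBC3 moved the same way as this list, and BAX, also a p53 target, the other way. In GFP cells dBRD9-A raised 2 of the p53 targets and lowered 3 (median 0.00585; 17 and 0 with spike-in scaling). PHLDA3 was among the rises there (0.46, SE 0.05, adjusted p = 1.82e-06).

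**Figure D5:**
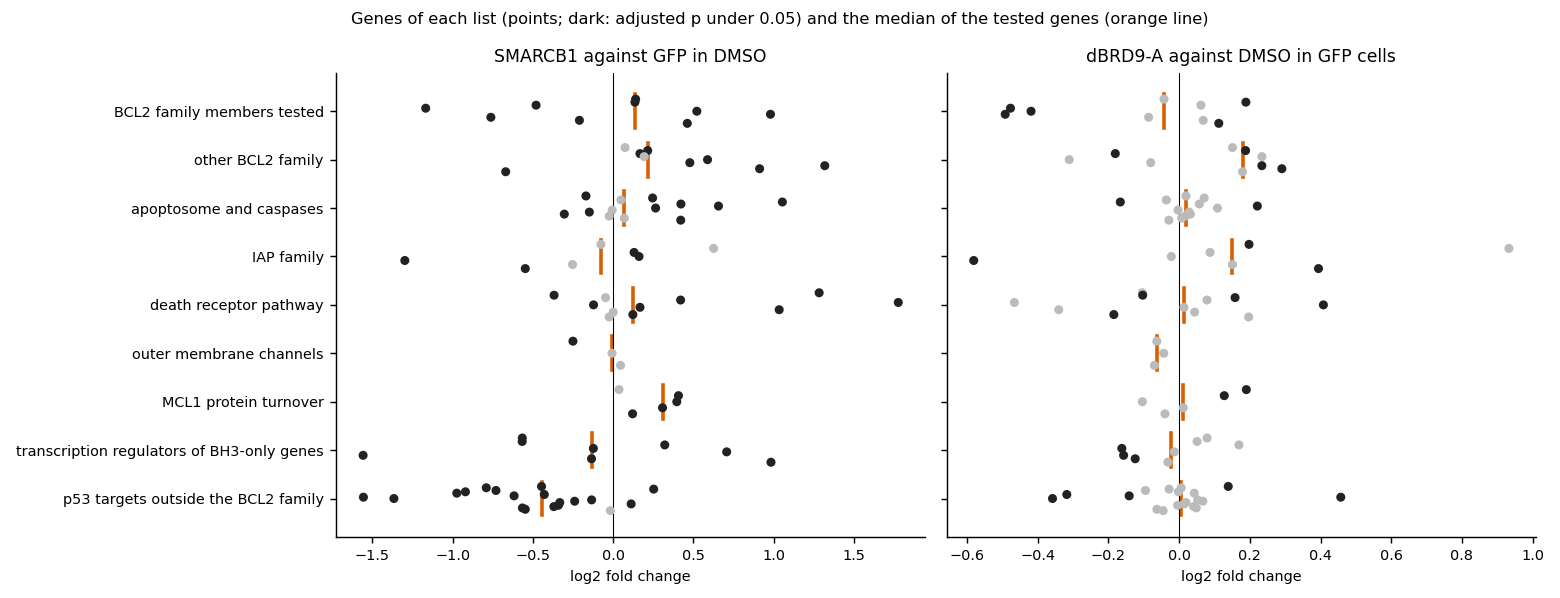
Log2 fold change (horizontal axis) of every tested gene of the members and of 8 other lists, for SMARCB1 against GFP in DMSO (left) and dBRD9-A against DMSO in GFP cells (right); dark points have an adjusted p under 0.05 and the orange line is the list's median. The members spread to both sides on the left with a median of 0.135, whereas the p53 targets lie mostly below 0 with a median of -0.446.

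The genes whose levels followed each member most closely over the 12 libraries were found by Pearson's r of log2 CPM, as a description over libraries that share the same 4 groups. For BCL2 they were DDIT4 (r = 0.9965) and ANGEL2 (0.9956), and for BCL2L1 they were LINC02709 (0.9951) and H3-3B (0.9937). MCL1 was followed by DPY19L1 (0.9962) and ZNF641 (0.9958), BCL2L2 by PDP2 (0.9928) and UTP14A (0.9904), and BCL2L11 by HKDC1 (0.996) and MAGT1 (0.9875). Such values were common for several members. An r over 0.95 was reached by 1760 genes with MCL1, 1201 with BCL2L2, 637 with BCL2, 483 with BCL2L11 and 416 with BCL2L1. The number was 192 for BBC3, 11 for BID and 1 for BAK1. For BBC3 the closest were PLEKHF1 (0.9869) and GPSM1 (0.981), and for BID they were KLF2 (0.9744) and AFMID (0.9713). BAK1 was followed by PEX3 (0.9513) and ISCA1 (0.9482). The closest match of BAX, an identifier without a symbol, reached 0.9317, and B4GALT2 reached 0.9271. No gene had an r over 0.95 with BAX.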

How the data were processed

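The authors deposited expected counts per gene from RSEM, as the name of the tables says, in 3 tables that each hold 2 groups. STAR, RSEM 1.3.1, DESeq2 and the builds GRCh37 and hg19 are named in the submitters' processing notes; the annotation and the strand setting are not given in the sources used here. Per the labels' protocols, a Qiagen kit gave the RNA and a TruSeq Stranded mRNA kit the libraries. Libraries held 34.97 to 58.54 megacounts (1e6 counts) assigned to 57820 gene identifiers, plus 40 ERCC spike-in RNAs that took 0.9634% to 1.302% of the counts and were left out of library sizes.

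From these counts, rounded to whole numbers, edgeR 4.0.16 in R 4.3.3 was used for quasi-likelihood tests with a coefficient for each group, fitted to all 12 libraries. The filter filterByExpr (minimum count 10) left 15750 genes, and TMM factors ran from 0.9765 to 1.016. Adjusted p values are Benjamini-Hochberg values over the 15750 genes, and a gene was called at an adjusted p under 0.05. Standard errors came from the quasi-F statistic, and 95% intervals from the t distribution. Counts per megacount (CPM) use TMM-scaled library sizes. The fitting procedure was tested on simulated data.

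Symbols were matched by unversioned identifier (51996 of 57820). Lengths, exon overlaps and coding stretches came from GENCODE 29, and promoters from RefSeq. All 10 members are named whatever their values. Of each other list, the gene with the lowest adjusted p under 0.05 was named for SMARCB1 against GFP in DMSO and for dBRD9-A in GFP cells, with every tested gene of the list of other BCL2 family genes; 1 gene that this rule names is not reported here. The 2 genes most correlated with each member over the 12 libraries were also named. The members and lists were chosen with earlier results of these data known. The alternatives were other size factors (DESeq2's RLE, the spike-ins), DESeq2 1.42.0, other filters, fits on the compared groups only, a replicate block, unrounded counts, a fold limit, and leaving out each library. Nothing in the labels says that replicates came from separate cultures, so p values measure the spread between these libraries.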

Additional observations from a re-analysis of the deposited data

Results flagged for a closer look

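The response to dBRD9-A differed between SMARCB1 and GFP cells, by the test of the interaction, for 2 members. BCL2L1 had an interaction of 0.4456 on the log2 scale (adjusted p = 1.73e-05, edgeR), with -0.42 in GFP cells and 0.03 in SMARCB1 cells. BCL2 had 0.2347 (adjusted p = 0.0400), with -0.48 and -0.24. The BCL2L1 call was kept in 12 of 12 fits without 1 library. The BCL2 call was kept in 3 of those 12 (adjusted p up to 0.115 in the others) and was lost with RLE size factors (adjusted p = 0.05). Both values turn negative when libraries are scaled to the spike-ins, to -0.04869 and -0.2624, while all genes then have a median of -0.491. In SMARCB1 cells the mRNA of SMARCB1 itself was also lower with dBRD9-A (1307 CPM) than with DMSO (1875 CPM), and its part was not tested.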

How the results depend on the processing

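Of the 45 member values (9 genes in 5 comparisons), 25 were called, and DESeq2, no filter, a minimum mean count of 50 and unrounded counts changed none of these calls. Leaving out 1 library kept 290 of 300 called values past the threshold. The replicate block also changed no member's call (called members per comparison 9, 8, 5, 1 and 2). After group means were removed, the 18 same-number correlations ran from -0.0559 to 0.0611, and 3 of 12 libraries correlated best with their own number. With 3 libraries per group, these values cannot exclude that same-number libraries were handled together. Serial numbers in the library titles run by replicate number, but no label says what same-number libraries share.

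Requiring an absolute log2 fold change of 0.5 left 4 members with SMARCB1 in DMSO, 5 with SMARCB1 under dBRD9-A, and 0 for dBRD9-A in GFP cells, for dBRD9-A in SMARCB1 cells and for the interaction. The median absolute log2 fold change of all genes was 0.284, 0.275, 0.0949, 0.0604 and 0.0992 in the same order. The share of all genes past this limit was not computed, so these member counts cannot be set against it. Without the fold limit, at an adjusted p under 0.05 alone, 1 member was called for dBRD9-A in SMARCB1 cells. That count was 2 with spike-in scaling, 0 in a fit of the compared groups only, and 0 to 1 over the fits without 1 library. The interaction count without the fold limit, 2 with TMM, was 7 with spike-in scaling, 1 with RLE size factors and 1 to 2 without 1 library.

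Spike-in scaling turned 14 values. With SMARCB1 under dBRD9-A these were BAX (-0.3173) and BAK1 (-0.1733). With dBRD9-A in GFP cells they were BCL2L2 (0.2719) and BAK1 (0.3153), and in SMARCB1 cells BCL2L1 (-0.1092), BCL2L2 (-0.1125), MCL1 (-0.112), BAX (-0.07377) and BID (-0.101). In the interaction they were BCL2 (-0.2624), BCL2L1 (-0.04869), BCL2L2 (-0.3844), BAK1 (-0.4812) and BCL2L11 (-0.2002). They follow the shift of all genes that this scaling makes. Another 7 uncalled values kept their sign and were called with spike-in scaling. For dBRD9-A these were BBC3 (0.4266) and BID (0.4314) in GFP cells and BCL2L11 (-0.339) in SMARCB1 cells. In the interaction they were MCL1 (-0.5842), BAX (-0.6217), BBC3 (-0.6823) and BID (-0.5323). Without 1 library, 5 uncalled values crossed 0: BAX with SMARCB1 under dBRD9-A (-0.008093 to 0.02806), BCL2L2 (-0.04119 to 0.1052) and BID (-0.00103 to 0.06898) with dBRD9-A in SMARCB1 cells, and BAK1 (-0.01811 to 0.04167) and BID (-0.06894 to 0.008898) in the interaction. Among other named genes, BCL2L13 (0.1796) turned with spike-in scaling for dBRD9-A in GFP cells, and BAD with SMARCB1 in DMSO ran from -0.0151 to 0.1281 without 1 library.

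Over all genes, spike-in scaling called 11310 genes for dBRD9-A in GFP cells (2504 with TMM), 873 in SMARCB1 cells (304) and 11270 in the interaction (598). For dBRD9-A in SMARCB1 cells the compared groups alone gave 156, no filter 652, and the fits without SMARCB1 replicate 2 or 3 with DMSO or replicate 3 with dBRD9-A 174, 171 and 195. Low counts limit BCL2L11 and BBC3 most among tested members, and PMAIP1 cannot be compared at this depth.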
